A study of Mus musculus with 6 samples.

Results

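The skin barrier lipid genes described here are 36 genes that make, lengthen, modify, secrete or break down ceramides and the other lipids of the outermost epidermis. They were taken by symbol from a fixed list, all 36 were found among the 30386 genes of the expression table, and 31 had a mean of at least 10 CPM (reads scaled to a common library total) and were tested together with the other genes, 7464 in all. The list was drawn up by function with earlier results of these data known, and it was sorted into 7 steps by what the enzymes do.

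Dorsal epidermis of mouse embryos (E18.5) was compared across 3 wild-type (WT) libraries and 3 libraries whose genotype is given as p63alphaKO. p63, encoded by Trp63, is the transcription factor on which the stratified epidermis depends, and its alpha isoforms carry the longest carboxy terminus. The title places the study in AEC syndrome, a skin disorder caused by dominant mutations in p63, and names epidermal homeostasis under p63 isoform modulation as a question. How the p63alphaKO allele was made, whether it acts in all cells or only in epidermis, and the strain of either group are not stated in any label or description at hand. Messenger RNA was read from its 3′ end (3′DGE) after enzymatic separation of the epidermis from the dermis. Nothing in the labels says that the replicates were separate embryos, so p-values measure the spread between these libraries only.

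The water barrier of the skin is a stack of lipid sheets between the dead cells of the cornified layer, and it is built from ceramides, cholesterol and free fatty acids. Keratinocytes of the granular layer make ceramides with very long acyl chains, join linoleate to the far end of the chain to give acylceramides, store them as glucosylceramides in lamellar granules and secrete them as the cell cornifies. Lipoxygenases then oxidise the linoleate so that the ceramide can be attached to the protein envelope. In people, inherited loss of several of these genes, among them CERS3, ABCA12, ALOX12B, ALOXE3, NIPAL4, PNPLA1 and SDR9C7, causes congenital ichthyosis.

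The 6 libraries held between 2564407 and 4474764 reads in genes, so that 10 CPM stood for 25.7 to 44.8 reads and the limit set by 3 reads lay between 0.67 and 1.17 CPM. Trp63 itself was at 63.9, 71.7 and 87.2 CPM in WT replicates 1 to 3 and at 143, 146 and 136 CPM in p63alphaKO replicates 1 to 3 (log2 fold change 0.93, SE 0.19, adjusted p = 0.0192), a count per gene that does not separate isoforms. Leaving out any single p63alphaKO library ended this call, with adjusted p from 0.0854 to 0.0998. Keratin 10 (Krt10), a marker of the suprabasal layers, was at 36990.2 CPM or more in every library. Markers of other tissues were present too and were unequal between the groups. Summed over 12 fibroblast and dermis genes, WT libraries held 2468 to 5553 CPM and p63alphaKO libraries 495 to 915 CPM. All 11 tested genes of that list had negative fold changes, and limma called 10 of them lower in p63alphaKO. The summed skeletal muscle list ranged from 476 to 3009 CPM in WT, with WT replicate 2 highest, and from 70.0 to 125 CPM in p63alphaKO. Summed erythroid genes were at 1903 to 3441 CPM in WT and 559 to 1769 CPM in p63alphaKO. The melanocyte list went the other way, at 201 to 332 CPM in WT and 343 to 481 CPM in p63alphaKO. The hair follicle sums overlapped, at 669 to 1135 CPM in WT and 875 to 952 CPM in p63alphaKO. In bulk RNA such as this, fewer cells of a type and less RNA per cell cannot be told apart.

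None of the 31 tested barrier lipid genes passed the threshold for a change between the genotypes. Higher in p63alphaKO at an unadjusted limma p under 0.05 were the ceramide synthase Cers3, the granule transporter Abca12 and 3 lipoxygenase pathway genes. These 3 were Sdr9c7, Nipal4 and Alox12b, and the groups overlapped for Alox12b. The sphingolipid genes Kdsr and Cers2 were lower at that unadjusted p. With limma at an adjusted p under 0.05, 0 of 31 members were called, against 123 of all 7464 genes (1.65%). At an unadjusted p under 0.05 there were 7 members (5 higher and 2 lower), beside 15.6% of all genes. edgeR called 0 members, against 82 of all 7464 genes. DESeq2 called 2 of the 31, Cers3 and Cers2, against 317 of all 7464 genes. All p63alphaKO libraries lay above all WT libraries for 9 members (29.0%), beside 7.6% of all genes, and all lay below for 2 members (6.45%), beside 13.4% of all genes. The fold changes of the 31 ran from -1.43 to 0.70 on the log2 scale, with 21 positive and 10 negative and a median of 0.19, where 40.2% of all tested genes were positive and their median was -0.085. Fold changes here compare p63alphaKO with WT as differences of mean log2(CPM + 1), and the added 1 shrinks those of rare genes.

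The scale on which libraries are compared moved these figures. With TMM factors, which set libraries to a common trimmed mean, 25 members were positive with a median of 0.30, while the median of all genes was 0.018. With upper quartile factors 26 members were positive with a median of 0.33 against 0.048 for all genes, and with quantile normalization 22 were positive with a median of 0.19 against -0.0062. The members whose p63alphaKO libraries all lay higher numbered 10 with TMM factors (11.3% of all genes), 12 with upper quartile factors (12.5% of all genes) and 6 with quantile normalization (9.49% of all genes), so the share over all genes moved by over 1.5 times. Without WT replicate 3 the median of the members was 0.12, against -0.047 for all genes. Summed over all 36 members, the level was 5477, 5314 and 5249.8 CPM in WT replicates 1 to 3 and 5744, 5715 and 6306 CPM in p63alphaKO replicates 1 to 3. Every p63alphaKO sum was above every WT sum, and p63alphaKO replicate 3 was highest. The 95% confidence interval of the fold change lay within 2-fold in either direction for 24 of the 31 genes and within 1.5-fold for 12.

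**Figure D1:**
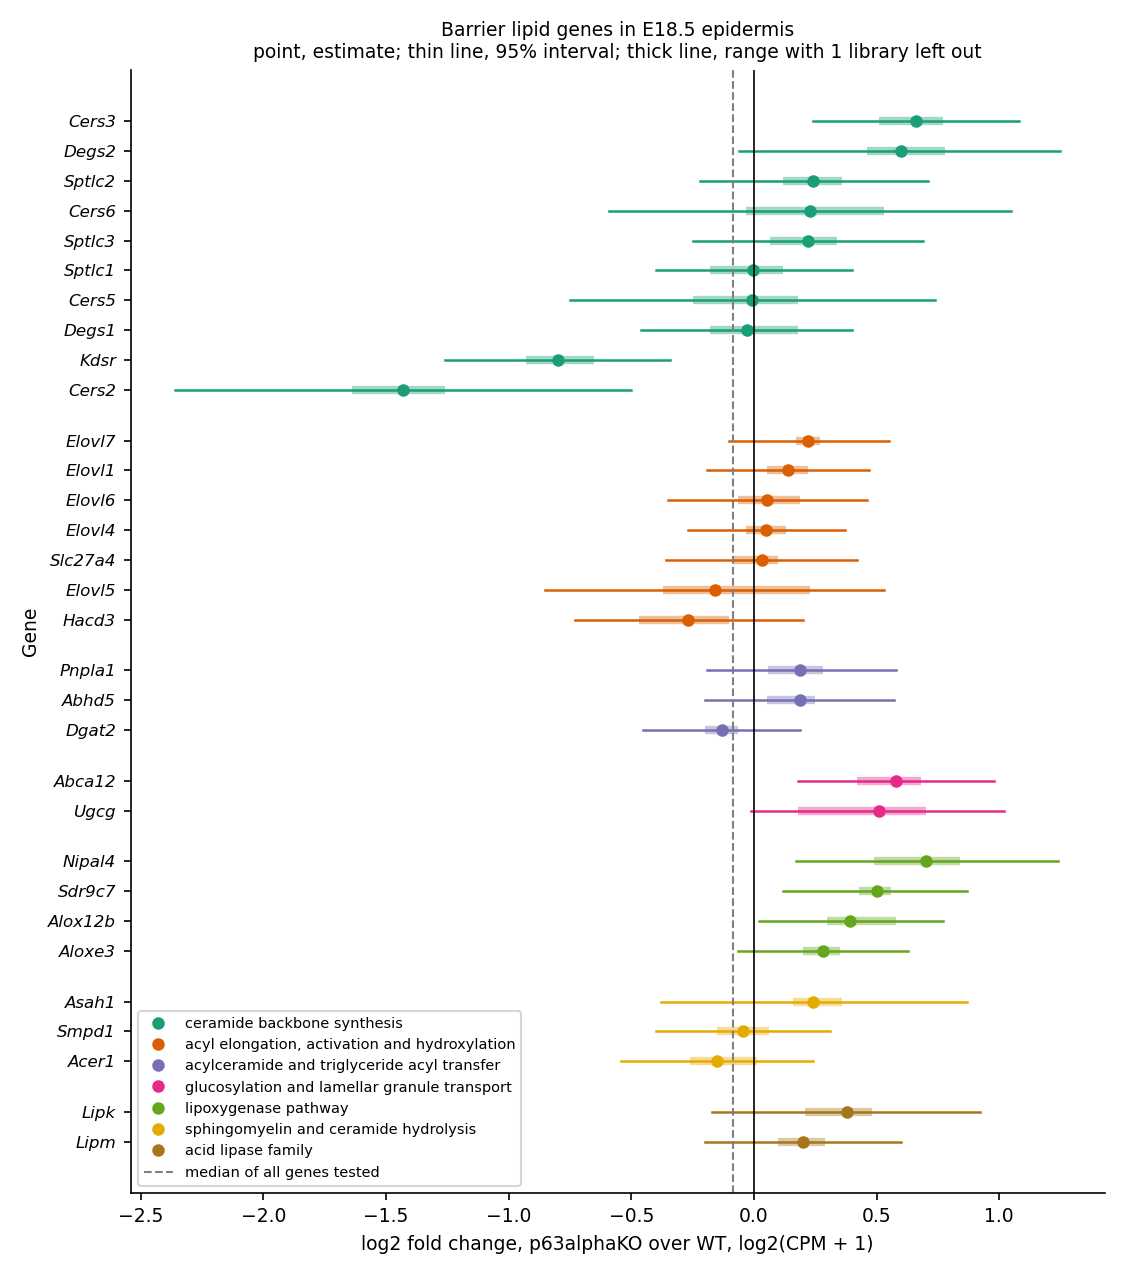
Log2 fold change between p63alphaKO and WT, as differences of log2(CPM + 1) (horizontal axis), of the 31 tested barrier lipid genes grouped by step (rows). Points are estimates, thin lines 95% confidence intervals and thick lines the range when 1 library is left out; the dashed line is the median of all tested genes. Nipal4 is at 0.70 and Cers2 at -1.43, and most other intervals cross 0.

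The sequences upstream of 4 members are shown, Kdsr (lower in p63alphaKO) and Cers3, Abca12 and Sdr9c7 (higher). They had an unadjusted limma p under 0.05, groups that did not overlap, and a sequence wholly or almost wholly outside the gene. Nipal4 (higher, 19 CpG) and Cers2 (lower, 24 CpG) met the other conditions but had more of the sequence inside the gene. Each is the 250 bases before the RefSeq transcription start on GRCm38.p6, the assembly of mm10, written 5′ to 3′ on the strand of the gene, with matches to the motifs named below in capitals. They lie at chr1:106759743-106759992 (minus strand) for Kdsr, chr7:66743254-66743503 (plus) for Cers3, chr1:71414911-71415160 (minus) for Abca12 and chr10:127898285-127898534 (plus) for Sdr9c7.
Kdsr: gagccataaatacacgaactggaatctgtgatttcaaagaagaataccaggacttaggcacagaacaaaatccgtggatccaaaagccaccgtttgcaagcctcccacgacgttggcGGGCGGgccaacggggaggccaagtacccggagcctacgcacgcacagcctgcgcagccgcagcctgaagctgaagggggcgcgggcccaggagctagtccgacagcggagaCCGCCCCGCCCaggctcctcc
Cers3: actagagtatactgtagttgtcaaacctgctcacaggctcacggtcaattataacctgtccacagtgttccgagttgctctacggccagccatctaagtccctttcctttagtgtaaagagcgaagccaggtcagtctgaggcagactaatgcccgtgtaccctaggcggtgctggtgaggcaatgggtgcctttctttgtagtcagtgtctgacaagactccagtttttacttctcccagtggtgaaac
Abca12: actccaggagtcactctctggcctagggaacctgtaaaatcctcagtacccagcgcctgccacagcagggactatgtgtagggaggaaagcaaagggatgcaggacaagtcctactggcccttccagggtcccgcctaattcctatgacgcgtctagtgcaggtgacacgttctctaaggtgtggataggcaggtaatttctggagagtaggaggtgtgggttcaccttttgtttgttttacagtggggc
Sdr9c7: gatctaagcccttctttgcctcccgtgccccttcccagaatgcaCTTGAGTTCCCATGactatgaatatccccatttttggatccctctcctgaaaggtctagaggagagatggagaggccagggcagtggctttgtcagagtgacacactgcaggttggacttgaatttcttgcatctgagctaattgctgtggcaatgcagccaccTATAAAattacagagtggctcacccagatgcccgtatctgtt
The Kdsr sequence holds 19 CpG dinucleotides at 61.6% G and C, with GC boxes (GGGCGG) in capitals. The Cers3 sequence holds 6 CpG at 49.6% G and C, the Abca12 sequence 5 at 53.2%, and neither contains any of the motifs searched. The Cers3 sequence ends at the start of the gene in GENCODE, but the principal transcript there starts 20665 bases further downstream, so it describes only the upstream start. The Sdr9c7 sequence holds 2 CpG at 49.6% G and C, with a TATAAA match near its 3′ end and a match to the p53 family element in capitals, and its last 17 bases fall inside the gene as GENCODE annotates it.

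Of the 36 members, 30 had an upstream sequence in the RefSeq table. Their median CpG count was 15, against 6 for all 32851 sequences of the table, and 21 (70.0%) had at least 10 CpG, against 37.8% of all. The 7 matched members whose p63alphaKO values were all higher had a median of 18, and 4 of them (57.1%) had at least 10 CpG. The low counts of Cers3, Abca12 and Sdr9c7 were not shared by these 4, Degs2, Elovl7, Abhd5 and Nipal4. Of the matched members that overlapped or were not tested, 15 (71.4%) had at least 10 CpG. The motifs were searched on both strands of these 250 bases. TATAAA was found in 1 member, Sdr9c7 (12.4% of all sequences), the GC box GGGCGG in 17 (32.7% of all) and CCAAT in 10 (33.8% of all). The AP-1 motif TGANTCA was found in 1, Lipn (6.75% of all), the p53 family element in Sdr9c7 and Acer1 (5.84% of all), and the Grainyhead element in 0 (1.79% of all). A match describes the letters only.

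Among the genes that build the ceramide backbone, the groups did not overlap for Cers3 and Degs2 (higher in p63alphaKO) and for Kdsr and Cers2 (lower). Of the 10 tested members of this step, 5 had positive and 5 negative fold changes (8 and 2 with TMM or upper quartile factors), with a median of 0.11, and limma called 0. The first step, the joining of serine to palmitoyl-CoA, is carried out by serine palmitoyltransferase. Its shared subunit gene Sptlc1 was at 139, 191 and 209 CPM in the WT libraries and 186, 182 and 163 CPM in the p63alphaKO libraries. The WT values spanned the p63alphaKO values, and the log2 fold change was -0.0019 (95% interval -0.40 to 0.40, adjusted p = 0.999), or 0.10 with TMM factors. Its catalytic subunit genes Sptlc2 and Sptlc3 had fold changes of 0.24 (adjusted p = 0.655) and 0.22 (adjusted p = 0.694), with overlapping groups. Sptlc2 made up 42.2% to 49.6% of the reads of these catalytic subunits in WT and 44.1% to 51.6% in p63alphaKO, so the balance between them overlapped as well.

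Kdsr (ENSMUSG00000009905, chromosome 1, 106720459 to 106759727, minus strand, mm10) encodes 3-ketodihydrosphingosine reductase, the enzyme of the next step. It was at 61.2, 71.9 and 90.7 CPM in WT replicates 1 to 3. In p63alphaKO replicates 1 to 3 it was at 38.4, 42.2 and 45.0 CPM. Every p63alphaKO library lay below every WT library, and the WT libraries were spread more widely. The means were 74.6 ± 14.9 CPM for WT and 41.9 ± 3.33 CPM in p63alphaKO (SD, n = 3 each), or a difference of -0.80 on the log2 scale (SE 0.21, 95% interval -1.26 to -0.34, 1.74-fold lower) with an adjusted p of 0.0694 by limma. Without WT replicate 1 it was -0.93 with an adjusted p of 0.0444, the only alternative in which a call was made for this gene, and over all alternatives the adjusted p ran up to 0.214. The fibroblast and dermis list was also lower in p63alphaKO (10 of 11 tested genes called), and its part in the lower Kdsr level was not tested.

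Ceramide synthases attach the acyl chain, and each prefers certain chain lengths. Cers3 (ENSMUSG00000030510, chromosome 7, 66743504 to 66823691, plus strand, mm10), which uses the ultra-long chains of the epidermis, was at 129, 140.4 and 101 CPM in WT replicates 1 to 3 and 167, 183 and 238 CPM in p63alphaKO replicates 1 to 3. The groups did not overlap, WT replicate 3 was lowest and p63alphaKO replicate 3 highest. The means were 123 ± 20.2 and 196 ± 37.2 CPM (SD, n = 3 each), or a difference of 0.66 on the log2 scale (SE 0.19, 95% interval 0.24 to 1.08, 1.58-fold) with an adjusted p of 0.0998 by limma. DESeq2 gave 0.77 with an adjusted p of 0.0351, and leaving out 1 library gave values from 0.51 to 0.77 with adjusted p from 0.0998 to 0.404.

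Cers2 (ENSMUSG00000015714, chromosome 3, 95314791 to 95323599, plus strand, mm10), the synthase for very long chains that many tissues share, was at 19.5, 16.5 and 12.3 CPM in WT replicates 1 to 3. In p63alphaKO replicates 1 to 3 it was at 7.34, 4.95 and 3.88 CPM, which stood for 26, 17 and 13 reads. All p63alphaKO libraries were below all WT libraries. The log2 fold change was -1.43 (SE 0.43, 95% interval -2.36 to -0.50) with an adjusted p of 0.108 by limma and 0.0288 by DESeq2. Exons of Cers2 overlap those of Setdb1 and 6330562C20Rik on the other strand by 219 bases in all, and the last base of Cers2 lies inside them. No source at hand says whether counting used the strand, so the level of Cers2 is uncertain, and the same holds for the other members with such an overlap (Cers4, Degs2, Elovl1, Elovl3, Elovl6, Pnpla1, Abhd5, Acer1 and Lipm). Setdb1 was at 8.26 to 16.7 CPM in WT and 2.68 to 9.03 CPM in p63alphaKO. The fibroblast list was lower in p63alphaKO here too (10 of 11 tested genes called), and its part in the Cers2 difference was not tested.

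Cers5 and Cers6, which make ceramides with shorter chains, overlapped between the groups with fold changes of -0.006 (adjusted p = 0.999) and 0.23 (adjusted p = 0.836), and the sign of Cers5 turned to 0.093 with TMM factors. Cers4 was below the minimum mean, at 1.95, 8.48 and 4.72 CPM in the WT libraries and 2.26, 4.95 and 2.09 CPM in the p63alphaKO libraries, and was not tested. As a share of the summed CPM of Cers2 to Cers6, Cers3 made up 70.4%, 70.5% and 73.8% in WT replicates 1 to 3 and 78.9%, 79.8% and 89.9% in p63alphaKO replicates 1 to 3. Cers2 made up 10.7%, 8.29% and 8.97% in WT and 3.48%, 2.16% and 1.47% in p63alphaKO. Neither share overlapped between the groups, and both follow from the levels given above. Reads came from 3′ ends, so these shares were not divided by transcript length.

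**Figure D2:**
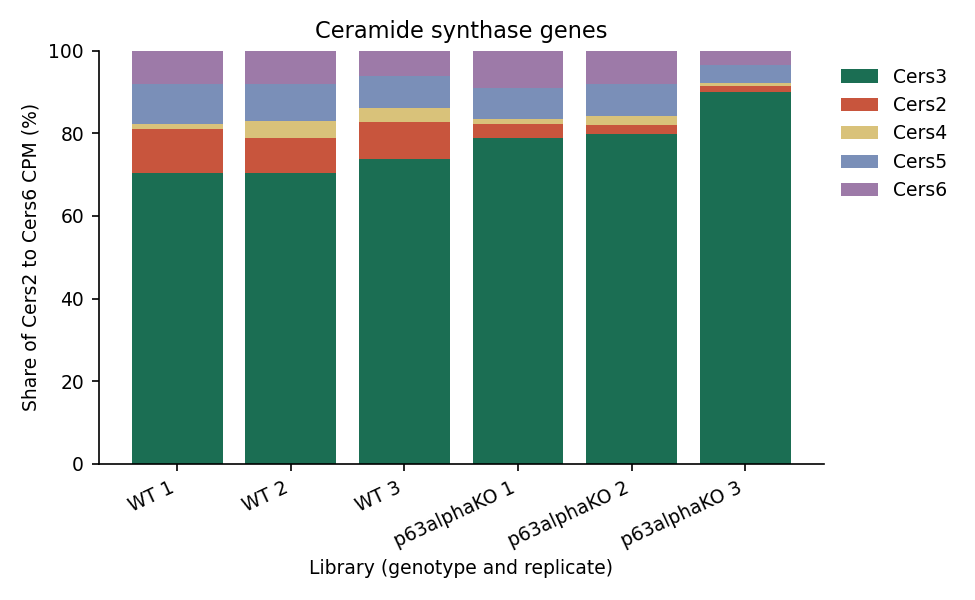
Share of the summed CPM of Cers2 to Cers6 that each gene contributed (vertical axis, percent) in each of the 6 libraries (horizontal axis). Cers3 takes 70.4% to 73.8% of the WT bars and 78.9% to 89.9% of the p63alphaKO bars.

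The desaturase gene Degs1, whose enzyme puts the double bond into dihydroceramide, was at 131, 191 and 115 CPM in the WT libraries and 146, 139 and 134 CPM in the p63alphaKO libraries (log2 fold change -0.029, adjusted p = 0.968), with WT values on both sides of the p63alphaKO values. With TMM factors its value was 0.077. Degs2, which hydroxylates the same position to make phytoceramides, was at 17.5, 12.5 and 11.0 CPM in the WT libraries and at 19.8, 21.6 and 21.2 CPM in the p63alphaKO libraries. Its groups did not overlap, but it was read at low levels and the log2 fold change of 0.60 (SE 0.31) had an adjusted p of 0.374. Its exons overlap Evl on the other strand by 278 bases, and Evl was at 14.0 to 27.9 CPM in WT and 8.95 to 20.0 CPM in p63alphaKO.

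**Figure D3:**
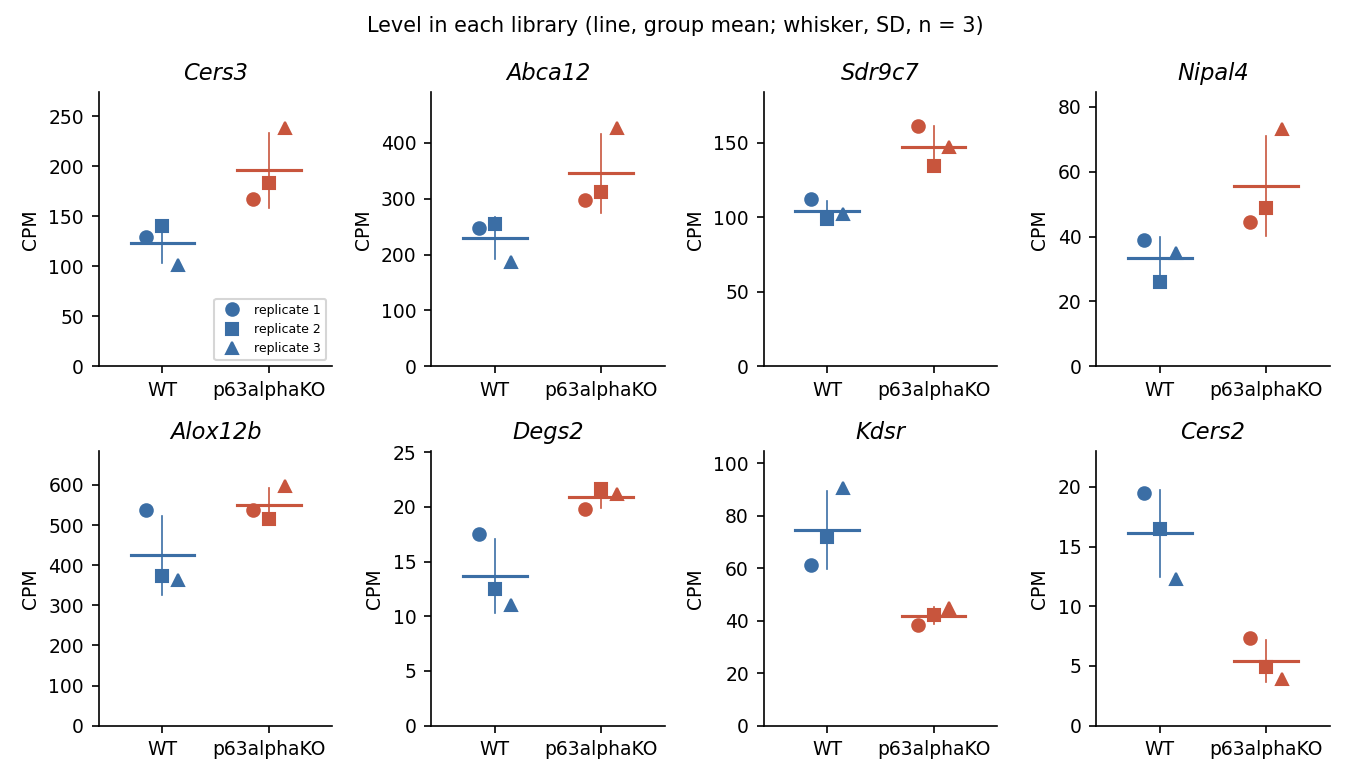
CPM of 8 barrier lipid genes (vertical axis, from 0) in each WT and p63alphaKO library; symbols mark the replicates, bars the group means and whiskers the SD (n = 3). The groups do not overlap for Cers3, Abca12, Sdr9c7, Nipal4, Degs2, Kdsr and Cers2, and for Alox12b WT replicate 1, at 537 CPM, lies among the p63alphaKO values.

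Elongation and activation of the acyl chain was the step with the most abundant genes, and none of its members had an estimate as large as those of Cers3 or Kdsr. Of 7 tested members, 5 were positive and 2 negative, with a median of 0.050 and a range from -0.27 to 0.22, and limma called 0. Elovl4, the elongase for ultra-long chains, was at 818, 728 and 909.9 CPM in the WT libraries and 782, 842 and 914 CPM in the p63alphaKO libraries. Elovl1, the elongase for saturated very long chains, was at 617, 589.7 and 721 CPM in the WT libraries and 648, 679.7 and 789.8 CPM in the p63alphaKO libraries. These members with the highest mean CPM overlapped between the groups, with fold changes of 0.050 (95% interval -0.27 to 0.37, adjusted p = 0.922) and 0.14 (95% interval -0.19 to 0.47, adjusted p = 0.735). Elovl1 overlaps Cdc20 on the other strand by 53 bases at its 3′ end, and Cdc20 reached 27.3 to 45.6 CPM over the 6 libraries.

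Elovl7 had the lowest WT coefficient of variation of the tested members (2.11%), at 313, 301 and 303 CPM, and was at 336, 351 and 388 CPM in p63alphaKO. The groups did not overlap, yet the distance between them was short, at 0.22 on the log2 scale (SE 0.15, 1.17-fold, adjusted p = 0.521). Elovl6, which lengthens palmitate, and Elovl5, which lengthens polyunsaturated acids, had fold changes of 0.052 (adjusted p = 0.935) and -0.16 (adjusted p = 0.868). Hacd3, a dehydratase of the elongation cycle, was at -0.27 (adjusted p = 0.609), and Slc27a4, the acyl-CoA synthetase FATP4 that activates long fatty acids, at 0.034 (95% interval -0.36 to 0.42, adjusted p = 0.961). All 4 overlapped between the groups. The remaining members of this step were rare and untested. Elovl3, an elongase known from sebaceous gland and brown fat, was at 7.40, 0 and 1.26 CPM in the WT libraries and 0.28, 2.33 and 0 CPM in the p63alphaKO libraries. Fa2h, which hydroxylates the acyl chain next to its carboxyl end, had 0, 0 and 3 reads in WT and 11, 2 and 5 reads in p63alphaKO. Cyp4f39, the cytochrome P450 that hydroxylates the far end of ultra-long chains, had 0, 2 and 17 reads in WT and 4, 2 and 22 reads in p63alphaKO, with replicate 3 highest in both groups. The groups overlap for all 3 of these genes.

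Pnpla1 transfers linoleate from triglyceride to the hydroxylated ceramide, Abhd5 is its coactivator and Dgat2 makes triglyceride. Of these 3 tested members, 2 were positive and 1 negative (3 and 0 with upper quartile factors), and limma called 0. Pnpla1 was at 142, 161 and 154 CPM in the WT libraries and 155, 162 and 211 CPM in the p63alphaKO libraries. Among these only p63alphaKO replicate 3 stood well above the WT range, and the log2 difference was 0.19 (SE 0.18, adjusted p = 0.666). Abhd5 was at 138, 139 and 105 CPM in the WT libraries and 139.8, 145 and 148 CPM in the p63alphaKO libraries, which did not overlap by a narrow margin (0.19, adjusted p = 0.682). Dgat2 was the more abundant gene, at 441 ± 40.7 CPM over the WT libraries and 402 ± 11.5 CPM in p63alphaKO (SD, n = 3 each), a log2 fold change of -0.13 (95% interval -0.45 to 0.19, adjusted p = 0.748) that turned to 0.0077 with upper quartile factors. Exons of Pnpla1 and Abhd5 overlap antisense genes, of which Pnpla1os was at 0 in all 6 libraries and A730085K08Rik reached at most 1.57 CPM.

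Both genes of glucosylation and granule loading were higher in p63alphaKO by their estimates (median 0.54), and limma called 0 of 2. Abca12 (ENSMUSG00000050296, chromosome 1, 71242276 to 71414910, minus strand, mm10), the transporter that moves glucosylceramides into lamellar granules, was at 247, 255 and 186 CPM in WT replicates 1 to 3. In p63alphaKO replicates 1 to 3 it was at 297, 312 and 426 CPM. The groups did not overlap, with WT replicate 3 lowest and p63alphaKO replicate 3 highest, as for Cers3. The means were 229 ± 37.4 and 345 ± 70.4 CPM (SD, n = 3 each), or a difference of 0.58 on the log2 scale (SE 0.19, 95% interval 0.18 to 0.98, 1.5-fold) with an adjusted p of 0.134 by limma, 0.0645 by DESeq2 and 0.0645 to 0.494 over all alternatives. Ugcg, glucosylceramide synthase, was at 140.3, 127 and 67.7 CPM in the WT libraries and 166, 152 and 138 CPM in the p63alphaKO libraries. WT replicate 1 overlapped p63alphaKO replicate 3, and WT replicate 3 lay far below the rest. Its log2 fold change was 0.51 (SE 0.24, adjusted p = 0.332), and without WT replicate 3 it was 0.18 with an adjusted p of 0.747.

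All 4 genes of the lipoxygenase pathway had estimates above 0 under every scaling tried (median 0.45), and limma called 0 of 4. Alox12b, the 12R-lipoxygenase that acts first on the linoleate of acylceramide, was at 537, 372 and 364 CPM in the WT libraries and 538, 516 and 597 CPM in the p63alphaKO libraries. WT replicate 1 lay with the p63alphaKO libraries and the other WT libraries lay below them. The log2 fold change was 0.39 (SE 0.18, adjusted p = 0.297), and without WT replicate 1 it was 0.58 with an adjusted p of 0.0739. Aloxe3, the lipoxygenase that takes over its hydroperoxide product, was at 261, 219 and 236 CPM in the WT libraries and 273, 273 and 327 CPM in the p63alphaKO libraries (0.28, SE 0.16, adjusted p = 0.438), without overlap. These genes are neighbours on chromosome 11, Aloxe3 at 69125896 to 69149115 and Alox12b at 69156989 to 69169792, both on the plus strand and 7873 bases apart.

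Sdr9c7 (ENSMUSG00000040127, chromosome 10, 127898518 to 127911761, plus strand, mm10), the dehydrogenase that acts on the epoxy alcohol made by the lipoxygenases, had narrow spreads, and its upstream sequence is the shown one with a TATAAA match. It was at 112, 98.7 and 102 CPM in WT replicates 1 to 3 and at 161, 134 and 147 CPM in p63alphaKO replicates 1 to 3. No p63alphaKO value came near the WT range. The means were 104 ± 6.89 and 147 ± 13.9 CPM (SD, n = 3 each), which put the log2 fold change at 0.50 (SE 0.17, 95% interval 0.12 to 0.87, 1.41-fold) with an adjusted p of 0.175 by limma, and 0.43 to 0.56 when 1 library was left out. Nipal4, a membrane protein of the granular layer also called ichthyin, was at 39.0, 26.1 and 35.0 CPM in the WT libraries and 44.6, 48.9 and 73.1 CPM in the p63alphaKO libraries. It had the largest positive estimate among the members, 0.70 (SE 0.25, 95% interval 0.17 to 1.24, 1.63-fold, adjusted p = 0.183), and p63alphaKO replicate 3 was well above its group. Without that library the value was 0.49.

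Hydrolysis of sphingomyelin and ceramide showed no member with separate groups. Of 3 tested members, 1 was positive and 2 were negative (2 and 1 with TMM or upper quartile factors), with a median of -0.046, and limma called 0. Smpd1, the acid sphingomyelinase that turns sphingomyelin into ceramide, was at 318 ± 48.0 CPM over the WT libraries and 306 ± 25.9 CPM in p63alphaKO (SD, n = 3 each), with a log2 fold change of -0.046 (95% interval -0.40 to 0.31, adjusted p = 0.935), or 0.061 with TMM factors. Acer1, the alkaline ceramidase of differentiated keratinocytes, was at 194, 174 and 181 CPM in the WT libraries and 192, 177 and 132 CPM in the p63alphaKO libraries (-0.15, adjusted p = 0.757), where p63alphaKO replicate 3 was the low library. Asah1, the acid ceramidase, had a value of 0.24 (adjusted p = 0.751).

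Lipk, Lipm and Lipn are members of the acid lipase family that granular keratinocytes express, and they lie side by side on the plus strand of chromosome 19 between 34008290 and 34122687. Both tested genes were positive, and limma called 0 of 2. Lipk was at 26.5, 22.3 and 23.0 CPM in the WT libraries and 27.1, 28.2 and 40.0 CPM in the p63alphaKO libraries. These groups did not overlap, but p63alphaKO replicate 1 exceeded WT replicate 1 by under 1 CPM, and the log2 fold change of 0.38 (SE 0.25) had an adjusted p of 0.522. Lipm was at 103, 118 and 91.9 CPM in the WT libraries and 137, 112 and 110.3 CPM in the p63alphaKO libraries (0.20, adjusted p = 0.675), with overlap. Its 3′ end shares 1219 exonic bases with Ankrd22 on the other strand, which was at 23.0 to 52.6 CPM in WT and 40.1 to 59.4 CPM in p63alphaKO. Lipn was below the minimum mean, at 6.23, 9.82 and 10.4 CPM in the WT libraries and 8.47, 9.03 and 11.0 CPM in the p63alphaKO libraries.

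Single libraries stood out across the members. WT replicate 3 was the lowest WT library for 17 of the 31 tested members (54.8%), against 27.9% of all tested genes, and p63alphaKO replicate 3 was the highest p63alphaKO library for 15 (48.4%), against 24.5% of all tested genes. Among the 9 members whose p63alphaKO values were all higher, p63alphaKO replicate 3 was highest for 7, with no matching share over all genes at hand. Over all tested genes p63alphaKO replicate 3 was the lowest p63alphaKO library for 50.5%, against 35.5% of the tested members. The same library had the highest sum of the 12 granular and cornified layer markers, 64067 CPM, where the other p63alphaKO libraries had 50198 and 49247 CPM and WT libraries 46309 to 53671 CPM. Of the 11 tested genes of that list 7 were positive (10 with TMM factors), with a median of 0.20 and none called by limma, 3 of them at an unadjusted p under 0.05. A higher median was not particular to this layer. Markers of the basal layer gave 6 positive and 2 negative fold changes, and limma called 1 lower. Their median was 0.3, or 0.41 with TMM factors. Spinous layer markers gave 3 positive and 4 negative fold changes, and limma called 1 higher. Their median was -0.011, or 0.1 with TMM factors. The part of these layer lists in the levels of the lipid genes was not tested. The sebaceous gland list summed to 556 to 686 CPM in WT and 797 to 978 CPM in p63alphaKO. Its 5 tested genes were split, with 3 positive and 2 negative fold changes, the lowest at -0.46, and limma called 1 higher. Most of the sum came from Prdm1, which granular keratinocytes also express and which had a limma call (log2 fold change 0.74, adjusted p = 0.0456, up to 0.2 with 1 library left out), and from Krt79, while Mc5r was at 0 in all libraries and Awat2 at no more than 0.85 CPM. The spread of the members was modest, with a median coefficient of variation of 16.4% in WT and 10.7% in p63alphaKO, against 21.2% and 16.8% for all tested genes.

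Beyond the 36 members, 118 other lipid genes were listed by function, and 67 were tested. Here limma called 2, Gba2 and Lpin2, both higher in p63alphaKO (1.65% of all genes were called), and 19 had an unadjusted p under 0.05 (15.6% of all genes). Their fold changes were split evenly, 33 positive and 34 negative, with a median of -0.011 that became 0.094 with TMM factors. The cumulative plot of fold changes shows the middle of the barrier lipid genes to the right of these genes, whereas the upper end of these genes, at 1.31, lies beyond the highest barrier lipid gene, at 0.70.

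**Figure D4:**
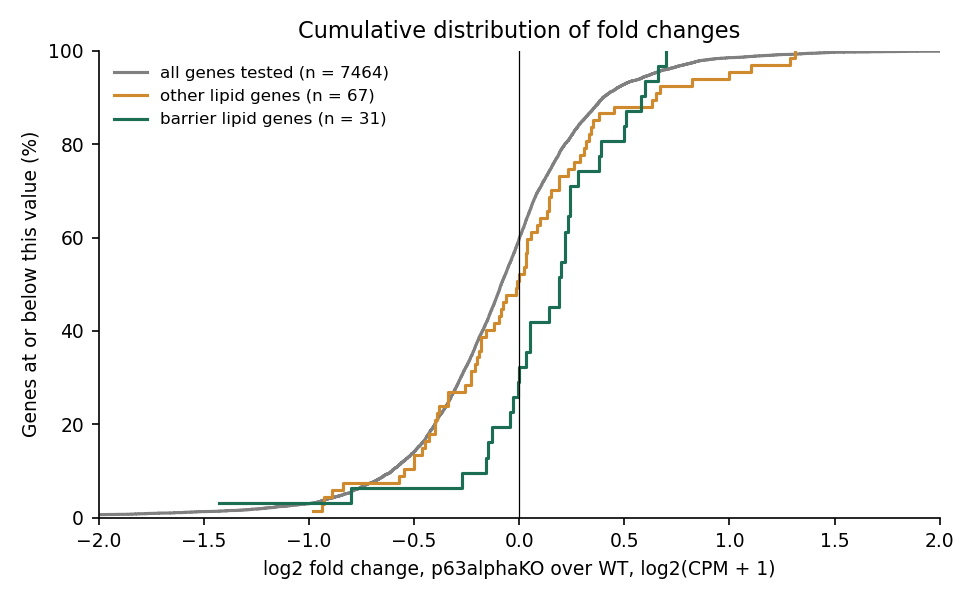
Cumulative share of genes (vertical axis, percent) at or below each log2 fold change between p63alphaKO and WT, as differences of log2(CPM + 1) (horizontal axis, shown from -2 to 2), for all 7464 tested genes, 67 other lipid genes and 31 barrier lipid genes. The medians are -0.085, -0.011 and 0.19.

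Sphingolipid genes outside the list gave 12 positive and 11 negative fold changes over 23 tested genes (median 0.032, or 0.13 with TMM factors). Gba2, the glucosylceramidase that works outside lysosomes and so breaks down the product of Ugcg, was at 29.6, 24.3 and 14.8 CPM in the WT libraries and 44.6, 51.2 and 74.0 CPM in the p63alphaKO libraries. It rose by 1.29 on the log2 scale (SE 0.29, 2.44-fold, adjusted p = 0.0362 by limma), with every p63alphaKO library above every WT library, again with WT replicate 3 lowest and p63alphaKO replicate 3 highest. The call was lost with edgeR (adjusted p = 0.0618) and when any library but WT replicate 1 was left out, with adjusted p from 0.0514 (without WT replicate 2) to 0.232 (without p63alphaKO replicate 3) and values of 1.02 to 1.44. Further genes of this list, named after their values were seen, were not called by limma. They are Gm2a, the activator of ganglioside breakdown (0.82, adjusted p = 0.0628), Sphk1, which phosphorylates sphingosine (-0.93, adjusted p = 0.0661), and Smpd3, a neutral sphingomyelinase (0.63, adjusted p = 0.112). DESeq2 called Gm2a (adjusted p = 0.014) and Sphk1 (adjusted p = 0.0415), and Gm2a was also called with a minimum mean of 1 CPM and without WT replicate 1.

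Genes of fatty acid synthesis, desaturation and activation were mostly negative, 12 of 15 tested (10 of 15 with TMM factors), with a median of -0.23, and limma called 0, with 2 at an unadjusted p under 0.05. Fabp5, the epidermal fatty acid binding protein and the most abundant of them, was at 1704, 2168 and 1787 CPM in the WT libraries and 1541, 1434 and 1176 CPM in the p63alphaKO libraries. All p63alphaKO libraries were lower, with a difference of -0.45 on the log2 scale (SE 0.16, adjusted p = 0.184). Fasn, fatty acid synthase, had a value of -0.46 (adjusted p = 0.222), and Acaca, which makes its malonyl-CoA substrate, -0.57 (adjusted p = 0.348). In the neutral lipid list 4 of 6 tested genes were positive (5 with TMM factors). Lpin2, a phosphatidate phosphatase on the way to triglyceride, was at 24.2, 37.7 and 31.2 CPM in the WT libraries and 52.5, 63.5 and 87.7 CPM in the p63alphaKO libraries. It rose by 1.10 on the log2 scale (SE 0.25, 2.14-fold, adjusted p = 0.0423 by limma) without overlap, but the call was lost when any library but WT replicate 2 was left out, with adjusted p from 0.0528 (without WT replicate 3) to 0.236 (without p63alphaKO replicate 3). Lipe, hormone-sensitive lipase, named after its values were seen, had a value of 1.0 (adjusted p = 0.0572), and it was called by DESeq2 (adjusted p = 0.0098), with a minimum mean of 1 CPM and without WT replicate 1.

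Other lipoxygenase and cytochrome P450 genes were mixed in sign, with 3 of 5 tested genes positive and 0 called by limma, 2 of them at an unadjusted p under 0.05. Alox12e and Alox12, lipoxygenases of mouse epidermis, had values of -0.84 (adjusted p = 0.23) and -0.50 (adjusted p = 0.264), with all p63alphaKO libraries lower for both. Ephx3, an epoxide hydrolase, was at 0.35 (adjusted p = 0.371), and Cyp2b19, the most abundant of this list, at 0.14 (adjusted p = 0.731). Among other genes of granules and lipid transport, 7 of 11 tested were positive (8 with TMM factors) and limma called 0, with 4 at an unadjusted p under 0.05. They included Abcg1, a sterol exporter (1.31, SE 0.49, adjusted p = 0.207 by limma and 0.0464 by DESeq2), Vipas39, a trafficking protein needed for lamellar granules (-0.89, adjusted p = 0.236), Vldlr, a lipoprotein receptor (-0.94, adjusted p = 0.304), and Klk7, a protease carried in the same granules (0.34, adjusted p = 0.318).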

How the data were processed

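Expression was measured in 6 libraries, 3 WT and 3 p63alphaKO. Per the submitters' processing notes, reads were handled with STAR and HTSeq on mm10, with versions, annotation and strand setting not given in the sources used here. Values are called normalized counts in the name of the file, but each column has nearly the same sum and fits reads per library total, so the authors' deposited values are CPM. All values (100%) were whole multiples of 1 read within 0.0055 CPM, which gave the reads per library used for edgeR and DESeq2. Limits from reads cover counting error only. The confidence intervals of fold changes come from the limma fit and measure the spread between these libraries.

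Genes whose mean reached 10 CPM were tested on log2(CPM + 1) by limma-trend, from limma 3.58.1 under R 4.3.3, two-sided, with genotype as the only term, Benjamini-Hochberg adjustment over all 7464 genes and a threshold of 0.05. An exact permutation test of 3 against 3 libraries has 0.1 as its smallest p. edgeR 4.0.16 (quasi-likelihood) and DESeq2 1.42.0 ran on the recovered reads as alternatives, beside other scalings, pseudocounts, filters, a replicate block and each library left out. Only the limma step was tried on simulated counts, which had the same dispersion for all genes. Positions are from GENCODE M21 (mm10) and upstream sequences from RefSeq GRCm38.p6. The replicate numbers were not used as pairs in the main test.

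The members and lists were chosen with earlier results of these data known. Per-library values are given for members with an unadjusted p under 0.05, no overlap or the highest levels, and for those that lead a step. Of each other lipid list every called gene is named, and otherwise the 3 with the smallest p and the most abundant. This does not hold for the marker lists, where limma also called genes that are not named.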

Additional observations from a re-analysis of the deposited data

How the results depend on the processing

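Of the 31 tested members, 20 kept the sign of their fold change in every alternative that gave a value, 14 of them in 17 and 6 in 16 (these are below the minimum of 50 CPM), and 11 changed it at least once. The median of the members was 0.33 with upper quartile factors and 0.12 to 0.22 with 1 library left out, lowest without WT replicate 3. DESeq2 called 2 members, and leaving out 1 library gave 0 to 1 (the 1 being Kdsr, without WT replicate 1). Members with all p63alphaKO libraries lower numbered 2 to 4 with 1 library left out, the 4 without WT replicate 1, where the share over all genes was 26.3% (16.0% to 26.3% over these settings). Over all genes limma called 123, against 256 with a minimum mean of 1 CPM, 36 with a minimum of 50 CPM, 317 by DESeq2 and 37 to 186 with 1 library left out (46, 67 and 37 without p63alphaKO replicate 1, 2 and 3, 186 without WT replicate 1). The share of lower calls was 71.5%, against 57.5% with TMM factors, 48.1% with upper quartile factors, 61.1% with quantile normalization and 52.1% by DESeq2. For the other lipid genes the median was 0.094 with TMM factors, 0.12 with upper quartile factors, 0.0063 with a minimum of 50 CPM, 0.066 by edgeR, 0.080 by DESeq2 and -0.094 to 0.0070 with 1 library left out. Their calls, 2 in the report, were 4 with a minimum of 1 CPM, 0 with no filter, 0 with a minimum of 50 CPM (19 positive there), 1 by edgeR, 7 by DESeq2 and 0 to 4 with 1 library left out. The stricter minimum tests fewer genes; the cause of the other changes was not tested.

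Fold changes near 0 turned sign with the scaling. With TMM factors, upper quartile factors, edgeR and DESeq2 in that order, Sptlc1 was at 0.10, 0.13, 0.066 and 0.080, Cers5 at 0.093, 0.12, 0.041 and 0.055, Degs1 at 0.077, 0.11, 0.014 and 0.028, and Smpd1 at 0.061, 0.091, 0.023 and 0.039. Cers5 was also at 0.19 with quantile normalization, and Dgat2 at 0.0077 with upper quartile factors. With 1 library left out, Sptlc1 ran from -0.18 to 0.12, Cers5 from -0.25 to 0.18, Cers6 from -0.033 to 0.53, Degs1 from -0.18 to 0.18, Elovl4 from -0.032 to 0.13, Elovl5 from -0.37 to 0.23, Elovl6 from -0.065 to 0.19, Slc27a4 from -0.090 to 0.10, Smpd1 from -0.15 to 0.063 and Acer1 from -0.26 to 0.011.

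The replicate numbers were not used as pairs in the main test, and with 3 libraries per group the following check cannot exclude a pairing. Deviations of same-numbered libraries from their group means correlated at -0.0234, 0.066 and -0.108, and a replicate block gave 127 calls over all genes, 0 among the members and 1 among the other lipid genes, where Gba2 had an adjusted p of 0.0557. Depth limits the rarest members most, since 3 reads stood for 0.67 to 1.17 CPM and Fa2h, Cyp4f39 and Elovl3 were near that level in most libraries.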

Other observations

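Transcription factors that regulate epidermal lipid genes were not among the members, and 7 of 10 listed nuclear receptors and differentiation factors were tested. Of these, 4 were positive and 3 negative under every scaling tried, with a median of 0.13, and limma called 0 of 7, with 3 at an unadjusted p under 0.05. Ppard, a lipid-sensing receptor abundant in keratinocytes, was at 20.3, 22.6 and 28.6 CPM in the WT libraries and 34.2, 37.3 and 42.0 CPM in the p63alphaKO libraries. Its groups did not overlap, with a difference of 0.65 on the log2 scale (SE 0.24, adjusted p = 0.206). Its partner Rxra was at 128, 122 and 154 CPM in the WT libraries and 104, 109 and 73.4 CPM in the p63alphaKO libraries, all lower, with a value of -0.50 (SE 0.20, adjusted p = 0.234). Zfp750, a factor of terminal differentiation, was at 138, 113 and 148 CPM in the WT libraries and 115, 86.8 and 73.7 CPM in the p63alphaKO libraries, with overlap at p63alphaKO replicate 1 (-0.55, adjusted p = 0.211). Klf4, required for barrier formation in mouse and the most abundant of the 7, was at 1994, 1638 and 1768 CPM in the WT libraries and 1979.9, 2052 and 2117 CPM in the p63alphaKO libraries (0.19, adjusted p = 0.577).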
